A study of Mus musculus with 2 samples.

Results

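The metallothionein genes Mt1, Mt2, Mt3 and Mt4, the metal-responsive transcription factor gene Mtf1 and the zinc exporter gene Slc30a1 were followed in the mouse uterus. The 6 genes were chosen by name, with earlier results of these data known. Every probe set annotated to them was taken, which gave 8 of the 22690 probe sets on the array. None of the 8 was shared with another gene. Total RNA came from uterine tissue between implantation sites on day 8 of pregnancy, from females aged 4 months of a mixed C57Bl/6J X OLA129 background. The groups were Cbs null, from mice homozygous for Cbs deficiency, and control, with 1 Affymetrix array each. Cbs encodes cystathionine beta-synthase, which joins homocysteine to serine on the route to cysteine. The labels give neither the altered part of Cbs, nor the genotype of the controls beyond that word, nor whether a sample was 1 animal or a pool. With 1 array per group no test, SD or p-value could be given, and no difference below has a replicate check.

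Metallothioneins are small, cysteine-rich proteins that bind zinc and copper and buffer them inside the cell. When free zinc rises, the zinc-finger factor MTF1 binds metal response elements (MREs) near the start of Mt1, Mt2 and Slc30a1 and raises their transcription. Mt1 and Mt2 are also induced by glucocorticoids, inflammatory cytokines and oxidants. Mt3 is best known from brain and Mt4 from stratified squamous epithelium, and in mice transcripts of the whole metallothionein locus have been described in decidua, the stromal tissue that forms around an implanted embryo.

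The 4 metallothionein genes form a cluster in the order Mt4, Mt3, Mt2, Mt1 on chromosome 8, with a predicted non-coding gene between Mt3 and Mt2, within 43124 bases from 94137204 to 94180327 (GRCm38.p6, RefSeq). All are transcribed from the plus strand. The windows below, from RefSeq in the same build, run from 250 bases before to 50 bases after a transcript start, 5′ to 3′. They are shown because metal response elements are the sites through which MTF1 acts on Mt1 and Mt2. The windows of Mt3 and Mt4 are shown beside them as the rest of the cluster. Capitals mark matches to the MRE core, TGCACNC or TGCGCNC, on either strand.
Mt1 (chr8:94178839-94179138, plus strand): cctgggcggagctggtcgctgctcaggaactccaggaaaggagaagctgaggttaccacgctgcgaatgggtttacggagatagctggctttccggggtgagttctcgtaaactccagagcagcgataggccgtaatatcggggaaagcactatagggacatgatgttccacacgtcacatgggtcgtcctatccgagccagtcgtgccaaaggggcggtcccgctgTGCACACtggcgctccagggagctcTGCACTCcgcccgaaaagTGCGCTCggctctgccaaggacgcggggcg
Mt2 (chr8:94172368-94172667, plus strand): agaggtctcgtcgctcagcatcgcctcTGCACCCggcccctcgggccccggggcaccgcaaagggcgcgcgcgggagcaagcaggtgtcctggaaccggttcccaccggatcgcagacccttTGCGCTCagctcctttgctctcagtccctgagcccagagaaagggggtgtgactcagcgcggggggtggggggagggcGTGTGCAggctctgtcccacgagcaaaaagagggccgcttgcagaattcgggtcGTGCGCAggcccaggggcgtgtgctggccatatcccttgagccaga
Mt3 (chr8:94152357-94152656, plus strand): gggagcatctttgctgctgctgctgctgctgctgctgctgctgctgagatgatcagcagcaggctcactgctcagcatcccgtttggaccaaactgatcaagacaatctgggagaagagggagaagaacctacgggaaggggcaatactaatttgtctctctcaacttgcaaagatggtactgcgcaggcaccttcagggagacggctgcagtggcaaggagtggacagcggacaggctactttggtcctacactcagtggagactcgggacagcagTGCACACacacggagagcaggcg
Mt4 (chr8:94136954-94137253, plus strand): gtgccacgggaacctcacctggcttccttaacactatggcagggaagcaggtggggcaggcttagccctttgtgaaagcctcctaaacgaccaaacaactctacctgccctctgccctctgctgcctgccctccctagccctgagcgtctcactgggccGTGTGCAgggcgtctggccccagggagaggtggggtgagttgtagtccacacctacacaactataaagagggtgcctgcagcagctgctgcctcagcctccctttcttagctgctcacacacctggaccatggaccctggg

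Mt1 had 3 MRE core matches in its window, Mt2 had 4, and Mt3 and Mt4 had 1 each, with no overlap between matches. Of 32851 promoter windows of 300 bases, 25.7% held at least 1 match, 1.97% at least 3 and 0.517% at least 4. Slc30a1 on chromosome 1 had 2, a number reached or passed by 7.11% of windows, and Mtf1 on chromosome 4 had none. For Mt1 the start used in the window lies 206 bases after the first base of its RefSeq gene record, and for Slc30a1 84 bases after, whereas for the other 4 genes both coincide. An antioxidant response element, TGACNNNGC on either strand, was found in the windows of Mt2 and Slc30a1, once in each, and in 12.4% of all windows. A TATA box, TATAAA on the plus strand of the gene, was found in Mt4 among the 6 windows and in 8.32% of all windows. These are matches of letters in a short window and show neither binding nor its absence. Bases outside a window were not searched, and another transcript start would move the window and its matches. No match here, such as for a TATA box in Mt1, therefore does not mean that the gene lacks the motif.

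**Figure D1:**
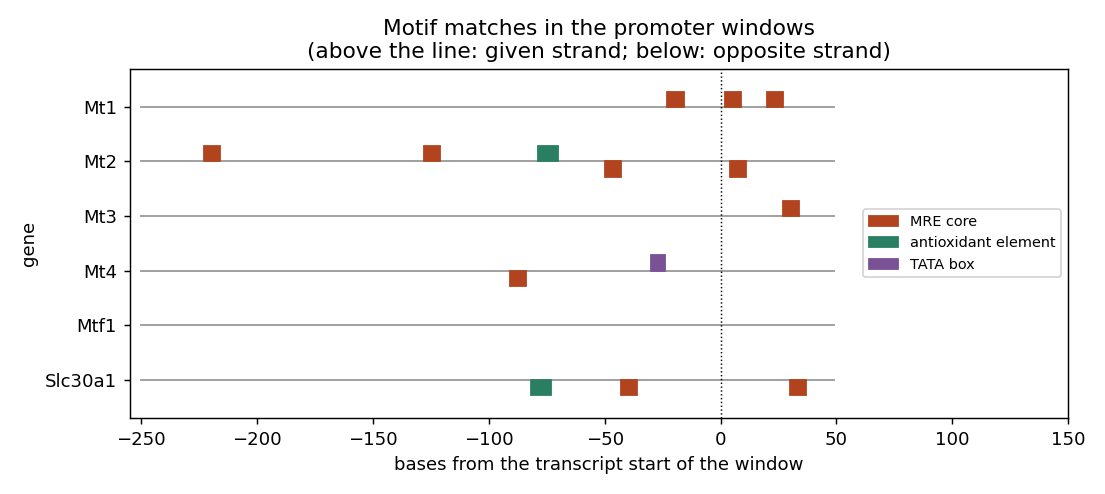
Motif matches in the promoter windows of the 6 genes, with the distance in bases from the transcript start of the window on the x axis. Boxes above a line are on the given strand and boxes below it on the opposite strand. The MRE core has 3 boxes in Mt1, 4 in Mt2, 1 each in Mt3 and Mt4, 2 in Slc30a1 and 0 in Mtf1.

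Array signals are deposited on a linear scale, and weak signals have no reliable order. A floor of 43.2 signal units, the 40th percentile of both arrays together, was therefore used, and a fold against a value under it is given as "at least". A gene was taken as measured if its brightest probe set, which stood for it, passed the floor in either sample. The 2% trimmed means were 200.07 for Cbs null and 200.08 for control, as scaling of both arrays to 1 target before deposit would set them. The targeted gene Cbs was weak. Its brighter probe set read 42.6 in Cbs null, just under the floor, against 79.8 in control. The other Cbs probe set read 25.1 in Cbs null and 39.8 in control, both below the floor, so it gave no ratio. Across 2757 genes with more than 1 probe set past the floor, the SD of a log2 ratio between probe sets of 1 gene was 0.22. It was 0.15 where the weaker set stayed above 4 times the floor on both arrays and 0.26 otherwise. It describes measurement on these arrays only, and variation among mice was not measured.

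All 4 metallothionein genes and Mtf1 had less signal in the Cbs null sample than in the control sample, and the largest difference that could be stated was that of Mt4. Mt4 was at least 10.1-fold lower and Mt3 at least 1.72-fold lower, while Mt1, Mt2 and Mtf1, past the floor in both samples, were 1.33-fold to 1.48-fold lower. Slc30a1 was below the floor in both samples. Of the 5 measured genes, 1 was at least 2-fold lower and 0 were at least 2-fold higher, whereas 0.713% of the 8410 genes measured on the array were at least 2-fold lower and 0.797% at least 2-fold higher. The 3 genes that passed the floor in both samples were all lower, against 46.2% of the 7941 such genes on the array. Mt3 and Mt4 counted as measured only through the control sample, so their direction followed from that filter and adds nothing to this count. Because the genes were chosen with earlier results of these data known, the shares are a description and not a test.

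**Figure D2:**
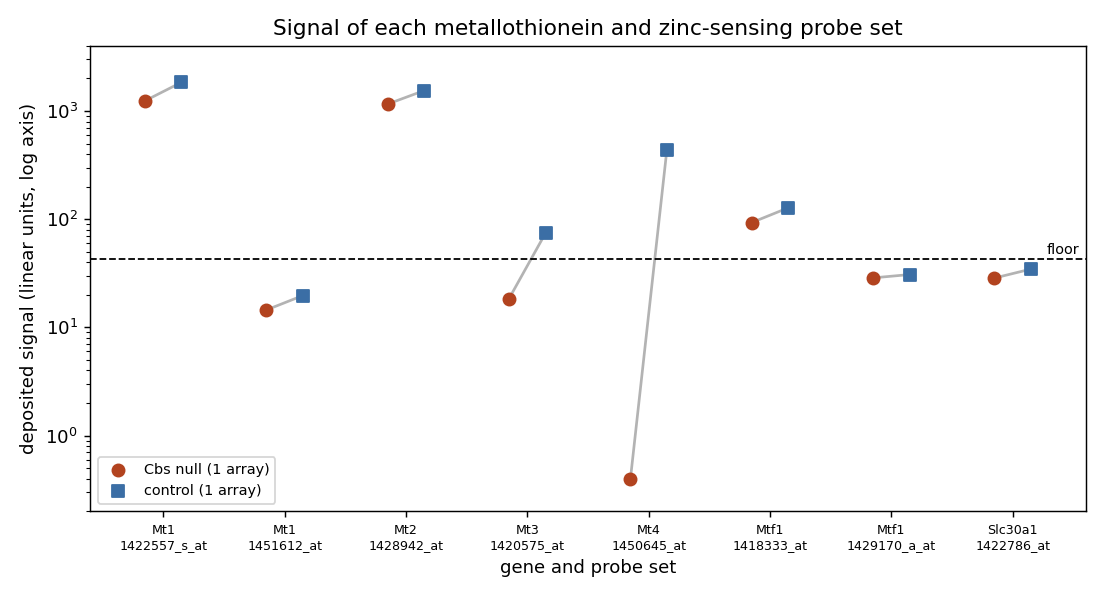
Deposited signal (log axis) of each of the 8 probe sets, with the Cbs null array as circles on the left and the control array as squares on the right of each pair, and the floor of 43.2 as a dashed line. The circle is the lower point in each of the 5 pairs that reach above the floor, and the gap is widest for Mt4, at 0.4 in Cbs null and 437.7 in control.

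Mt1, a ubiquitous, zinc-inducible metallothionein, read 1245 in Cbs null against 1845 in control. Its log2 ratio, Cbs null over control, was thus -0.57, or 1.48-fold lower. This was larger than the probe-set SD of 0.15 for bright genes, but 3.29% of the 7941 genes above the floor in both samples were as low or lower. The value came from a probe set with the _s_at suffix, by which Affymetrix marks probes that can match several transcripts. The second Mt1 probe set lay below the floor in both samples, at 14.5 in Cbs null and 19.7 in control, so it gave no ratio.

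Mt2, the other ubiquitous form, read 1161 in Cbs null against 1547 in control, a log2 ratio of -0.41. Its single probe set was thus 1.33-fold lower in Cbs null, and 6.60% of the same 7941 genes were as low or lower. The log2 ratios of Mt1 and Mt2 differed by 0.15, which is about the probe-set SD of bright genes. Their differences therefore could not be put in order.

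Mt4 read 0.4 in Cbs null against 437.7 in control on its single probe set. Signal at the bottom of the scale carries no order, and 193 of the 22626 probe sets that are not array controls read 0.4 or less in Cbs null. Against the floor the log2 ratio was at most -3.34. Because this is a bulk tissue, fewer cells that express Mt4 and less Mt4 RNA per cell cannot be told apart.

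Mt3, the brain-type form, read 18.5 in Cbs null against 74.4 in control. The control value was 1.72 times the floor, so only a log2 ratio of -0.78 or lower could be stated, and it did not reach the 2-fold rule. A lower floor, at the 20th percentile, gave -2.01. Of the 8 neural marker genes checked, 0 were above the floor in either sample, with summed signals of 77.3 in Cbs null and 81.1 in control, and none at 0.

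Mtf1, the zinc sensor that drives Mt1 and Mt2, read 93.2 in Cbs null against 127.5 in control. The log2 ratio was -0.45, or 1.37-fold lower, and 5.54% of the same genes were as low or lower. Both signals were under 4 times the floor, where the probe-set SD was 0.26, so the difference was less than 2 such SDs. The second Mtf1 probe set read 28.7 in Cbs null and 30.8 in control, both below the floor. A floor at the 60th percentile gave Mtf1 a log2 ratio of -0.08, since its Cbs null signal then lay below it. Slc30a1, which exports zinc across the plasma membrane and is itself an MTF1 target, read 28.6 in Cbs null and 34.6 in control. It can be said only that Slc30a1 stayed under the floor of 43.2 on both arrays.

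**Figure D3:**
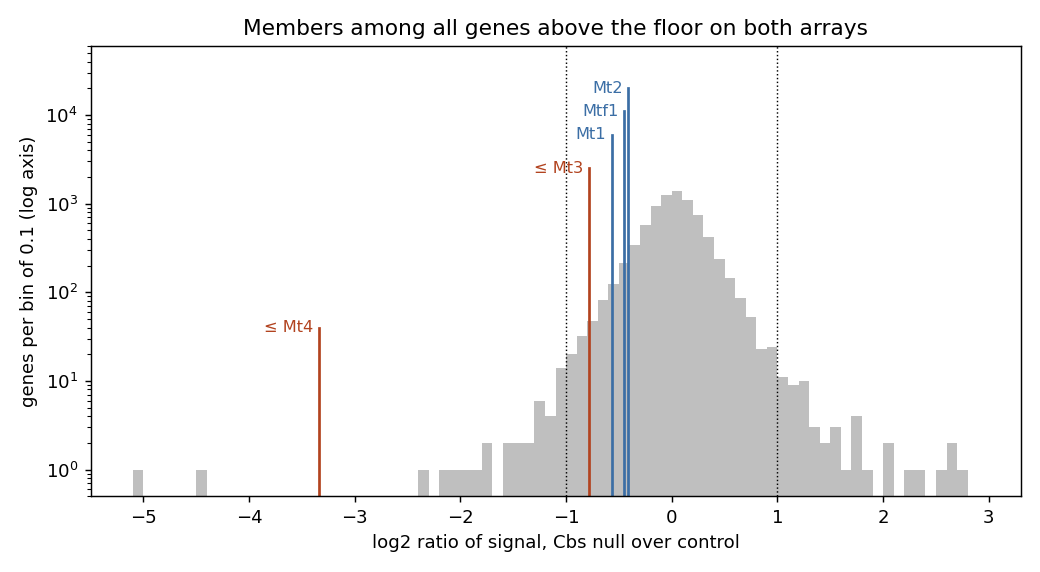
Histogram of the log2 ratio of signal, Cbs null over control, for 7941 genes above the floor in both samples (log count axis), with dotted lines at 2-fold. Vertical lines mark Mt1 at -0.57, Mtf1 at -0.45 and Mt2 at -0.41, inside the lower shoulder, and the bounds of Mt3 at -0.78 and Mt4 at -3.34, of which only Mt4 lies beyond the 2-fold line.

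No measured gene around the cluster differed 2-fold. On the whole array only 0.713% of measured genes were at least 2-fold lower and 0.797% higher, so none among so few genes is the usual case. Of the 12 named RefSeq genes nearest to the cluster, 6 on each side, 6 had their own probe set and 5 passed the floor in both samples. Their log2 ratios ran between -0.13 for Nup93, a nuclear pore protein gene, and 0.31 for Bbs2, a gene of the ciliary BBSome complex. Gnao1 and Nudt21 stood at -0.01 and -0.03 and Herpud1, an ER stress gene, at 0.23. Bbs2, directly before Mt4, read 94.9 in Cbs null against 76.3 in control. Nup93, directly after Mt1, read 154.3 in Cbs null against 169.4 in control. The kidney salt transporter gene Slc12a3 was below the floor in both samples.

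**Figure D4:**
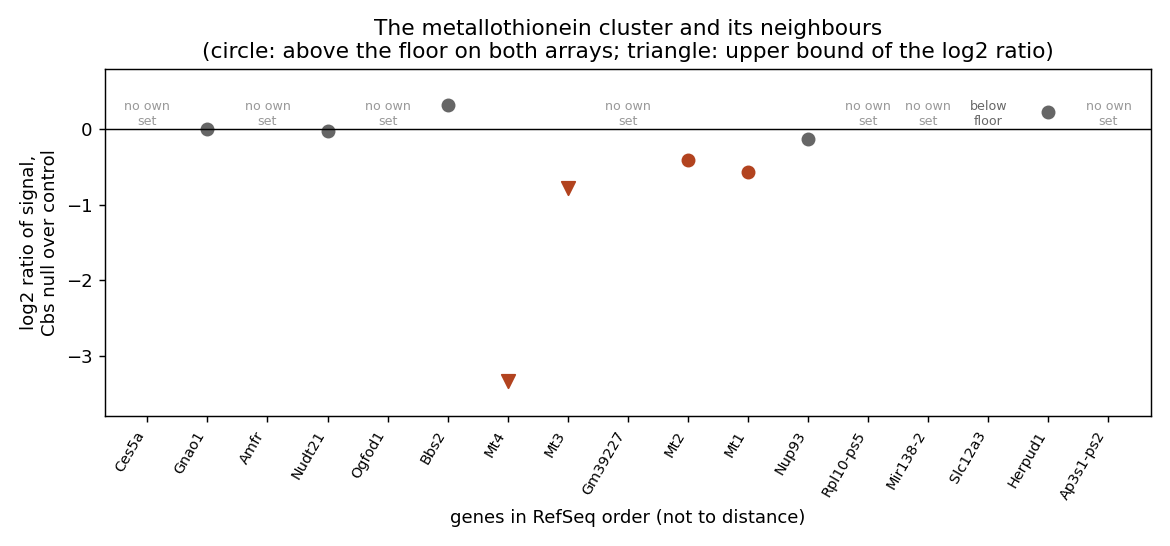
Log2 ratio of signal, Cbs null over control, for the metallothionein cluster and the 6 nearest named genes on each side, in RefSeq order and not to distance. The 5 neighbours with a value lie between -0.13 and 0.31, and the 4 metallothionein genes lie lower, with Mt3 and Mt4 drawn as bounds.

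Zinc transporters were next set beside the metallothioneins, since importers raise and exporters lower the cytosolic zinc that MTF1 senses. Among zinc importers of the ZIP family, Slc39a4 was 2.28-fold higher in the Cbs null sample and no other measured member differed 2-fold. Slc39a4, an importer known from the apical membrane of absorptive epithelium, read 990.3 in Cbs null against 433.9 in control on its single probe set, a log2 ratio of 1.19. Of 10 importers measured, 5 were higher and 5 lower, where 53.3% of all measured genes were higher and 46.5% lower, with a median log2 ratio of -0.08 against 0.02 for all measured genes. Slc39a13, a Golgi zinc transporter needed in connective tissue, was the lowest at -0.62, with 116.9 in Cbs null against 179.7 in control. Slc39a14, which is induced by inflammation and carries zinc and iron, stood at -0.17, with 243 in Cbs null and 272.8 in control. Slc39a8 had a log2 ratio of 0.12 in its brighter probe set and 0.60 in the other. The remaining 6 importers, Slc39a1, Slc39a3, Slc39a6, Slc39a7, Slc39a9 and Slc39a11, lay between -0.22 and 0.11.

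The other zinc exporters, of the ZnT family, differed little. Of 7 with their own probe set, 6 passed the floor in both samples, with log2 ratios between -0.16 for Slc30a5 and 0.15 for Slc30a7 and a median of 0.11. Slc30a5 and Slc30a7, which load zinc into the secretory pathway, read 353.7 and 121.7 in Cbs null against 394.6 and 109.8 in control. Slc30a4 stood at -0.09, Slc30a9 and Slc30a6 at 0.11 each and Slc30a3 at 0.12. Slc30a2 was below the floor in both samples.

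Copper genes, followed because metallothioneins bind copper as well, showed no 2-fold difference among 9 measured. Such differences were rare on the array, at 0.713% of measured genes lower and 0.797% higher. Their log2 ratios lay between -0.23 for Cox17, the chaperone that brings copper to cytochrome oxidase, and 0.38 for the transporter gene Slc31a2, with a median of 0.02. Ccs, the chaperone that loads copper into superoxide dismutase, stood at 0.34, and Sod1 itself at 0.03. The copper pump gene Atp7a read 347.1 in Cbs null and 343 in control, a log2 ratio of 0.02, although its other probe set gave 0.47. The importer gene Slc31a1 stood at -0.02 in its brighter set and at -0.53 in the other. The chaperone genes Atox1 and Commd1 stood at 0.00 and 0.25, and the plasma copper carrier gene Cp at -0.19. Other Cp probe sets past the floor lay between -0.50 and 0.03. The second Slc31a2 probe set, past the floor only in Cbs null, was at 0.54 or higher. Atp7b was below the floor in both samples.

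Other genes known as MTF1 targets did not move together. Of 5 that passed the floor in both samples, 3 were lower and 2 higher, none by 2-fold, with a median log2 ratio of -0.10. Among all 7941 such genes, 46.2% were lower. Differences of 2-fold were rare over all measured genes, at 0.713% lower and 0.797% higher. Csrp1, which encodes a LIM-domain protein, read 2718 in Cbs null against 3873 in control, a log2 ratio of -0.51, and -0.47 in its second probe set. Ndrg1, a stress-responsive gene, went the other way at 0.60, with 914.3 in Cbs null against 603.3 in control, and its other 4 probe sets lay between 0.36 and 0.55. Selenow, which encodes selenoprotein W, stood at -0.10 in its brighter probe set and at 0.14 in the other. Without _s_at and _x_at probe sets the median over the measured genes of the list was 0.0043, against -0.11 with them. Gclc, the catalytic subunit of the enzyme that starts glutathione synthesis from cysteine, was at 0.34 in its brighter set and 0.10 in the other. Slc40a1, the iron exporter ferroportin, stood at -0.13, placental growth factor Pgf was at -0.43 or lower, and the hepcidin gene Hamp was below the floor in both samples.

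**Figure D5:**
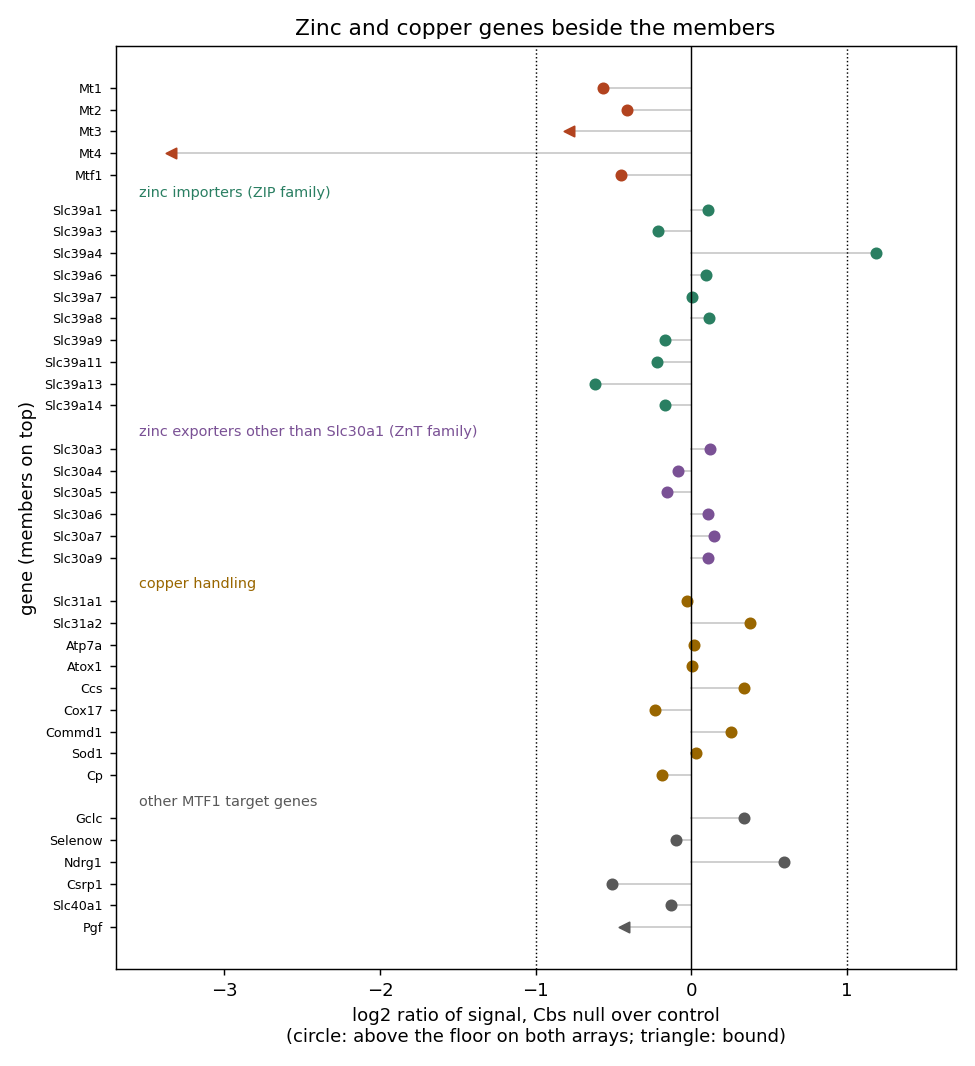
Log2 ratio of signal, Cbs null over control, for the 5 measured members on top and for the measured zinc importers, zinc exporters, copper genes and other MTF1 target genes. Circles are genes above the floor on both arrays, triangles are bounds, and dotted lines mark 2-fold. Mt4 and Slc39a4 lie beyond these lines, on opposite sides.

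Genes of the other routes that induce Mt1 and Mt2 went in both directions. So did the array as a whole, where 46.5% of the measured genes were lower and 53.3% higher. None of the measured genes in the 3 lists checked differed 2-fold, as Mt1 and Mt2 themselves did not. Few genes on the array did, with 0.713% at least 2-fold lower and 0.797% at least 2-fold higher. Of 12 glucocorticoid response genes, 5 were lower and 7 higher, with a median log2 ratio of 0.05. Klf9, Errfi1 and Hsd11b2, the list members of highest signal, stood at 0.36, 0.10 and -0.47. Hsd11b2 inactivates glucocorticoids, and it read 1351 in Cbs null against 1870 in control. The lowest of the list were Hsd11b1, which reactivates glucocorticoids, at -0.67, Fkbp5 at -0.58 with -0.84 in its second probe set, and Sgk1 at -0.55, about as low as Mt1 or lower. The phosphatase gene Dusp1 was the highest at 0.68. Of 7 genes of the IL6 family and acute phase that passed the floor in both samples, 5 were higher and 2 lower, with a median of 0.20. Il6st, the shared gp130 receptor chain, was at 0.20, Stat3 at 0.09 and Lifr at -0.01. The highest were Lcn2 at 0.44 and Socs3 at 0.42, with 0.27 and 0.44 in other Socs3 probe sets. The lowest was Osmr at -0.11. Saa3, at 0.15 or higher, passed the floor only in Cbs null, so its direction was fixed by that filter. Of 8 antioxidant genes under NRF2, 5 were higher and 3 lower, with a median of 0.05. In that list Nfe2l2, which encodes NRF2, stood at 0.07, Txnrd1 at -0.07 and Gclc at 0.34, and the heme oxygenase gene Hmox1 was below the floor in both samples.

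Markers of cell types that could carry the metallothioneins differed between the samples as well. Of 15 decidual genes with their own probe set, 14 were measured and 3 were at least 2-fold lower in Cbs null. These were the tryptophan-degrading dioxygenase Tdo2, the prolactin family gene Prl8a2 and the activin inhibitor Fst. Among all measured genes on the array, 0.713% were at least 2-fold lower and 46.5% were lower at all. The summed signal of the 15 decidual genes was 4199 in Cbs null against 6271 in control. Over the 14 measured decidual genes, 10 were lower and 4 higher, with a median log2 ratio of -0.38. Over the 9 that passed the floor in both samples, a filter that leaves out genes under it in Cbs null, 5 were lower and 4 higher, with a median of -0.01. Among these 9, the chaperone gene Cryab stood at -0.70, Wnt6 at -0.58, Hoxa11 at -0.01, Hoxa10 at 0.19 and Wnt4 at 0.48. Of 11 uterine natural killer cell genes with their own probe set, 10 were measured. At least 2-fold lower were 7 of these, all granzymes, beside the same 0.713% of all measured genes. The summed signal of the list was 386.1 in Cbs null against 1788 in control. The 3 genes of that list that passed the floor in both samples stood at -0.22 for the perforin gene Prf1, -0.11 for Klrd1 and 0.23 for Ctsw, and the receptor gene Ncr1 was below the floor in both. Tdo2, Prl8a2, Alpl, Epas1, Ptgs2 and the 7 granzymes passed the floor only in control, so their direction was fixed by that filter. The count of lower decidual genes and the median of -0.38 include such genes. None of 4 trophoblast genes with a probe set was above the floor, and their sums were 50.4 in Cbs null and 60.7 in control.

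Several keratin genes of stratified squamous epithelium, the tissue in which Mt4 is best known, were higher in the Cbs null sample, unlike Mt4. Of 16 marker genes of that tissue with a probe set, 8 were measured, and 4 keratin genes, Krt5, Krt13, Krt14 and Krt15, were at least 2-fold higher in Cbs null, against 0.797% of all measured genes. Krt15 and 3 others of the 8, Krt6a, Lor and Sprr1a, passed the floor only in Cbs null, so their direction was fixed by that filter. The 4 that passed it in both samples were Krt5, Krt10, Krt13 and Krt14, at log2 ratios between 0.32 and 1.72. Krt5, the basal cell keratin, read 428.8 in Cbs null against 130.3 in control. The summed signal of the list was 1347 in Cbs null against 510.4 in control, while Ivl, Krt1 and Trp63 were below the floor in both. Of 14 markers of uterine luminal and glandular epithelium, 11 passed the floor in both samples and all 11 were higher, with a median log2 ratio of 0.63. Sums over the list were 13649 in Cbs null and 5635 in control. Spink1 alone gave much of that difference, at 6218.7 in Cbs null against 1234.4 in control. Over all 7941 genes above the floor in both samples, 46.2% were lower. All 9 smooth muscle genes were lower, with a median log2 ratio of -0.52 and sums of 33813 in Cbs null and 41911 in control. All 8 measured macrophage and dendritic cell genes were higher, with a median of 0.50 and sums of 6724 in Cbs null and 4663 in control. No marker of any of these lists was at exactly 0 in either sample. The part of these cell types in the values of Mt1, Mt2, Mt3, Mt4, Mtf1 and Slc39a4 was not tested.

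The genes whose pair of floored signals lay nearest to that of a member were listed as a description over only 2 samples. For Mt4 they were the growth factor binding protein gene Igfbp2, Prl8a2 and the granzyme gene Gzmd. All 3 were below the floor in Cbs null, at 26.3, 5.8 and 5.4, against 427.9, 424.4 and 377.8 in control. Mt4 was below it there too, so the likeness to Mt4 rested on the control signal alone, and signals of different probe sets are not comparable as levels. Nearest to Mt1, the member of highest signal, were the heat shock gene Hspa1b, the smooth muscle gene Smtn and Acly, the ATP citrate lyase gene, at distances of 0.06, 0.10 and 0.11. Their log2 ratios were -0.62 for Hspa1b, -0.70 for Smtn and -0.48 for Acly, beside -0.57 for Mt1.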

How the data were processed

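Total RNA of the 2 samples was labelled with biotin from 2 microg each, per the labels' protocols. The deposited value of a probe set on an array is 1 intensity, and GCOS 1.4 appears in the submitters' processing notes. How probes were summarised and scaled, and any detection calls, are not stated. The number of arrays limits the precision. Signals were used as deposited, so every ratio assumes equal total signal.

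The platform annotation gave 1 gene symbol for 20380 probe sets, of which 20351 matched a RefSeq gene identifier (GRCm38.p6), and several symbols for 691. A gene was represented by the 1-symbol probe set of highest mean log2 signal after flooring. A log2 ratio was Cbs null over control. The steps were run in Python 3.11.15 with numpy 2.4.6 and pandas 2.3.3. They were tested on simulated data in which only genes of high control signal were raised. No simulated gene was set to be lower or to fall under the floor, so the bounds were not tested in this way. The members and gene lists were chosen with earlier results of these data known. Named genes were the members, all measured zinc and copper genes, cluster neighbours, nearest genes, and some list members at least 2-fold apart or of highest signal. Not every list member that met this rule was named. Alpl, Epas1 and Ptgs2 were named for passing the floor only in control, after their values were seen. The smooth muscle and macrophage lists were described by counts, medians and sums. Gclc as an MTF1 target, Slc40a1, Pgf, Hamp, Hmox1, Atp7b, Slc30a2, Hsd11b1, Fkbp5, Sgk1, Dusp1, Lcn2, Socs3, Osmr, Saa3, Spink1, Prf1, Klrd1, Ctsw, Ncr1, Cryab, Wnt4, Wnt6, Krt6a, Krt10, Lor, Sprr1a, Ivl, Krt1 and Trp63 were added after their values were seen. Alternatives were other floors, a pseudocount of 16, median centring, quantile normalization, averaged probe sets, leaving out _s_at and _x_at probe sets, and thresholds of 1.5-fold and 3-fold.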

Additional observations from a re-analysis of the deposited data

How the results depend on the processing

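Mt4 was at least 2-fold lower under all 9 alternatives, and no member was at least 2-fold higher under any of them. The count of members at least 2-fold lower was 2, with Mt3 added, when the floor was at the 20th percentile and when a pseudocount of 16 replaced the floor. The Mt3 log2 ratio was -2.01 and -1.39 under these settings. With the threshold at 1.5-fold, 2 members, Mt4 and Mt3, were at least 1.5-fold lower. That of Mt4 was -5.33 with the lower floor, -1.86 with the floor at the 60th percentile and -4.79 with the pseudocount. Averaging probe sets moved Mt1 to -0.28 and Mtf1 to -0.23, because their second probe sets lie at the floor. Slc30a1 had a value only with the lower floor, at -0.27. Mt3 had none with the floor at the 60th percentile, and Mt1 none above the floor without _s_at probe sets. Mt2 lay between -0.43 and -0.38 under every alternative that gave it a ratio.

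Genes at least 2-fold lower numbered 218 and higher 250 with the floor at the 20th percentile, and 31 lower and 30 higher at the 60th. At 1.5-fold there were 287 lower and 306 higher, and at 3-fold 22 lower and 16 higher. The natural killer list median over measured genes was -1.79, and -3.53, -0.85, -2.71 and -1.55 with the lower floor, the higher floor, the pseudocount and without _s_at and _x_at probe sets. The stratified epithelium median of 1.07 was 0.58 with averaged probe sets, and the neural list had a median, 0.15, only with the lower floor. At the main floor, only 3 of 10 measured natural killer genes and 4 of 8 stratified epithelium genes passed it in both samples. The other values in these 2 lists are bounds whose direction the filter fixed, so the medians of both lists depend on the floor. The other 85 list medians under alternatives moved by less than the probe-set SD of 0.22. No paired analysis was possible because each group has 1 array.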
